A study of Mus musculus with 36 samples.

Results

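The 9 genes described here act when a reticulocyte, the young red cell that has already lost its nucleus, disposes of its mitochondria, ribosomes, and other organelles. They were chosen by name as genes with a known role in that step or in the loss of the nucleus just before it, and every non-control probe of the array that carries one of the 9 symbols was taken. This gave 14 of the 39429 probes. All 14 passed the filters on background and variability, so each of the 9 genes is among the 15077 genes tested, represented by its brightest probe.

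Reticulocytes enter the blood from the marrow and mature there over a short time. Mitochondria are marked by receptors on their outer membrane, enclosed by a double membrane that grows around them, and delivered to the lysosome, while ubiquitin enzymes tag ribosomal and cytoskeletal proteins for the proteasome. Mature red cells hold little RNA, so the red-cell messages found in whole blood come largely from reticulocytes.

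Blood was taken by cardiac puncture from male C57BL/6J mice aged 8 to 10 weeks, 7 days after whole-body exposure, and each of the 36 mice was read on its own array, giving 6 groups of 6. Control mice received no radiation and, per the study's methods, were handled as a sham group. The X-ray group received 3 Gy of photons. The 5, 15, and 25% mixed-field groups received the same total of 3 Gy, of which neutrons made up 0.15, 0.45, and 0.75 Gy. The group called Neutron alone received 0.75 Gy from the neutron source without added X-rays, and per the methods that source also gives off some photons. All mice were otherwise untreated, and globin transcripts were depleted from every RNA sample. Values are log2 intensities minus the median of all probes on the same array, so every level and difference below is relative to that median.

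Between 15581 and 21300 probes were well above background on each array. The median log2 intensity of an array, subtracted from every value, averaged 4.501 in controls, 3.76 with X-rays, 3.83 with 5%, 3.85 with 15%, 4.59 with 25%, and 3.57 with Neutron alone. The arrays lay on 10 slides scanned in 4 sessions. All 25% and Neutron alone arrays were scanned in a session that held no control and no X-ray array, so session and exposure cannot be told apart for those groups. Red-cell markers were present as labelled for blood, with 27 of the 29 markers well above background on all 36 arrays and Sptb and Xk on 34 and 35 of them. No pair of arrays held identical values.

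Each gene is measured by few short probes, which limits what a value stands for. Bnip3l has 4 probes, Wipi1 and Xpo7 have 2 each, and the other 6 genes have 1. The array annotation, on build mm9, places Bnip3l probe 3 at chr14:67604077-67604136, on the chromosome of the gene itself, and the brightest probe, probe 1, at chr12:18224355-18224414. The Gabarapl2 probe is placed at chr5:23623991-23624050 although the gene lies on chromosome 8. Whether these probes read a near-identical copy elsewhere in the genome was not tested, so both genes carry that uncertainty. The Trim58 probe is at chr11:58465809-58465868, the Ube2o probe at chr11:116399379-116399438, the Ulk1 probe at chr5:111213514-111213573, the Map1lc3b probe at chr8:124121771-124121830, and the brighter Xpo7 probe at chr14:71062054-71062113. The Alox15 probe has no position in the annotation. Whether a probe lies in coding sequence was not looked up here.

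The sequences of the Alox15 probe, which has no genome position, and of the second Wipi1 probe are shown. The second Wipi1 probe was called like the first, but on the same RNA and arrays, so it is no independent repeat. Both sequences shown are 60 bases long, written 5′ to 3′.
Alox15: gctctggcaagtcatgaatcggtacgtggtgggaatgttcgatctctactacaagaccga
Wipi1 probe 2: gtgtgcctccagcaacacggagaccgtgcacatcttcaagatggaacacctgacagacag

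Promoter windows of 250 bases upstream of the annotated start were held by RefSeq tables on GRCm38.p6 for 5 of the 9 genes, namely Ulk1, Gabarapl2, Map1lc3b, Wipi1, and Trim58. They were searched on both strands for the GATA-factor motif AGATAA, its second form TGATAA, the KLF1 motif CCACACCC, the forkhead motif GTAAACA, and the TFEB motif TCACGTG. None of the 5 windows held any of them. Of 32851 promoter windows of the same length, 16.6% hold either GATA form, 3.2% the KLF1 motif, 3.17% the forkhead motif, and 3.13% the TFEB motif. The windows of Trim58 and Wipi1, which passed the test against controls in all 5 exposures, are shown in lower case, since there is no match to mark. The Trim58 window is at chr11:58640215-58640464 on the plus strand and the Wipi1 window at chr11:109611390-109611639 on the minus strand.
Trim58: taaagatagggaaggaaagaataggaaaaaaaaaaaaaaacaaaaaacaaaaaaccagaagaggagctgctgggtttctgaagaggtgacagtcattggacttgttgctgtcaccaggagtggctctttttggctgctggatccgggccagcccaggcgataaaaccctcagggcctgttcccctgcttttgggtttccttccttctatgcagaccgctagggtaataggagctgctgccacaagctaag
Wipi1: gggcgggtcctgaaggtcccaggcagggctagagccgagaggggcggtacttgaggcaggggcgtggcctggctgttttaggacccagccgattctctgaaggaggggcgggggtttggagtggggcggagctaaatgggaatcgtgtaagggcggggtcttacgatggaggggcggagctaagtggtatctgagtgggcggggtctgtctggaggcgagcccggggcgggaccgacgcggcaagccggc

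Against controls, the organelle clearance genes that differed were all higher. The call rule was a limma p under 0.001 together with an adjusted p under 0.05 by the Benjamini-Hochberg method. Among the 9 genes, 6 were called higher with X-rays, where 12.9% of all genes tested were, and 3 with the 5% mixed field, where 9.01% were. With the 15% mixed field 7 were called higher beside 12.6% of all genes, with the 25% mixed field 3 beside 10.9%, and with Neutron alone 7 beside 16.1%. None was called lower, beside 16.9, 14, 16.6, 13.9, and 20.4% of all genes in the order X-rays, 5, 15, 25%, and Neutron alone. In the same order, 6, 2, 5, 5, and 7 of the 9 genes had all 6 exposed mice above every control, beside 14.5, 7.73, 10.9, 12.1, and 15% of all genes. The median log2 fold-change of the 9 genes was 1.41, 1.296, 1.51, 0.997, and 1.68, beside medians over all genes of -0.11, -0.08, -0.02, -0.12, and -0.12. All 5 comparisons use the same 6 control mice. Of the 5 and 15% mice, 1 of each shared a slide and scan session with a control, and with slide or session as a block no gene was called in those 2 groups.

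Trim58, Wipi1, and Xpo7 were called higher in all 5 exposures, as were 594 of the 15077 genes (3.94%). Trim58 and Xpo7 also had every exposed mouse above every control in all 5, as did 532 genes (3.53%). Bnip3l, Gabarapl2, and Ube2o were called with X-rays, 15%, and Neutron alone, Ulk1 with 15% alone, Map1lc3b with Neutron alone, and Alox15 in none.

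The calls and signs depend in part on how arrays are put on a common scale. Spike-in centring left 3, 1, 2, 1, and 0 of the 9 genes called higher in the order X-rays, 5, 15, 25%, and Neutron alone, and normexp background correction left 0, 0, 2, 0, and 0. When arrays were centred on 8 spike-in probes instead of the array median, an alternative added after the data were seen, the median of all genes fell by 1.09, 1.44, 1.30, 0.97, and 1.99 in the same order of exposures. Under that scale Trim58 had values above 0 in all 5 exposures, but its Neutron alone value of 0.46 was not called. With Neutron alone Ulk1 and Map1lc3b were called lower (-1.36 and -0.98). Wipi1, Xpo7, Ube2o, and Alox15 had values below 0 there (-0.10, -0.40, -0.20, and -0.92) that were not called. The changes below are therefore changes relative to the other transcripts on the array.

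**Figure D1:**
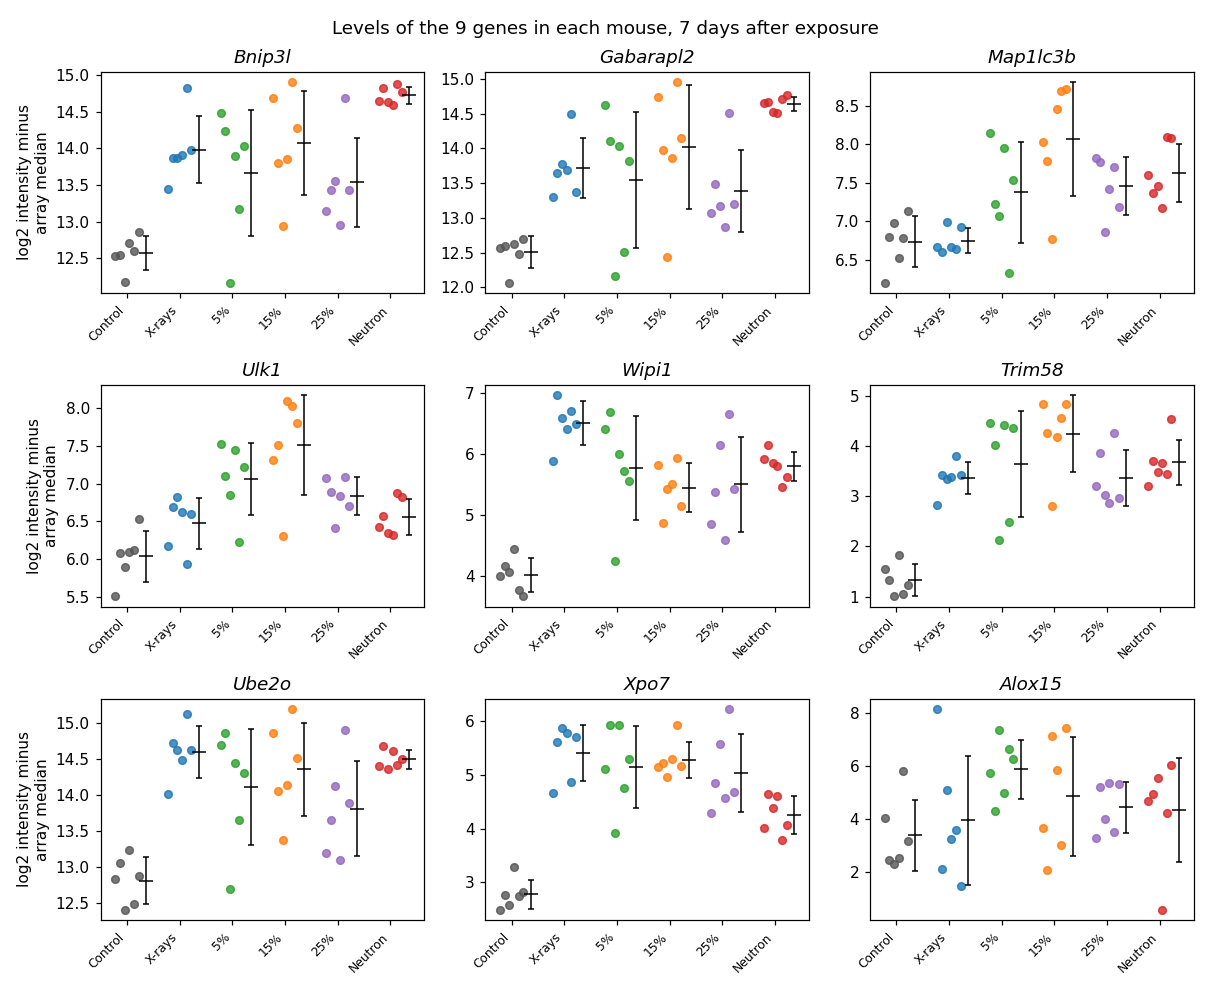
Each point is a mouse, with the level of 1 of the 9 genes as log2 intensity minus the array median on the vertical axis of its panel and the 6 groups along the horizontal axis. Bars give the mean and SD of 6 mice. Trim58 and Xpo7 show every exposed mouse above the controls, the Neutron alone mice lie close together for Bnip3l, Gabarapl2, and Ube2o, and Alox15 ranges widely within each group.

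Bnip3l encodes NIX, the receptor on the outer mitochondrial membrane through which reticulocytes hand their mitochondria to the autophagosome. Its level in controls was 12.18 at the lowest, 12.58 at the median, and 12.86 at the highest. With X-rays the corresponding levels were 13.44, 13.89, and 14.82, and with Neutron alone they were 14.59, 14.70, and 14.87. Neither exposed group overlapped the controls, and the Neutron alone mice were spread over a narrow range (SD 0.12, n = 6).

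The log2 fold-change of Bnip3l was 2.15 ± 0.13 (SE) with Neutron alone, a 4.44-fold difference with an adjusted p of 9.7e-08. It was 1.41 ± 0.23 with X-rays (adjusted p = 0.000251) and 1.51 ± 0.30 with 15% (adjusted p = 0.00104). With 5% the levels ran from 12.16 to 14.48 around a median of 13.96, and replicate 3 lay below every control. That difference was 1.09 ± 0.35, was not called (adjusted p = 0.0202), and was called without that replicate (1.39). With 25% it was 0.97 ± 0.27 and was not called (adjusted p = 0.00956), although all 6 mice were above every control. With 5% the difference changed sign to -0.27 on the spike-in scale and to -0.98 after normexp background correction.

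The 4 Bnip3l probes gave changes of different size. With Neutron alone all were called, with log2 fold-changes of 2.15, 1.41, 2.83, and 1.67 for probes 1 to 4. The largest was that of probe 3, the probe placed on chromosome 14. With 15% probes 1 and 3 were called (1.51 and 2.52) and probes 2 and 4 were not (0.82 and 0.80). With 25% probe 3 alone was called, at 1.61, so the call for the gene depends on the probe.

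Gabarapl2 and Map1lc3b encode ATG8-family proteins, which are attached to the growing autophagosome membrane and bind cargo receptors such as NIX. Gabarapl2 lay between 12.06 and 12.70 in controls with a median of 12.59. The X-ray mice ran from 13.30 to 14.50 with a median of 13.67, and the Neutron alone mice from 14.51 to 14.77 with a median of 14.66. Both exposed groups were clear of the controls, and the Neutron alone range had an SD of 0.10 (n = 6).

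The log2 fold-change of Gabarapl2 was 2.13 ± 0.13 (SE) with Neutron alone (adjusted p = 9.7e-08), 1.21 ± 0.22 with X-rays (adjusted p = 0.00063), and 1.51 ± 0.36 with 15% (adjusted p = 0.00297). The 15% call was the least secure, since it was lost when any 1 of 11 of the 12 arrays was left out, with only the omission of 15% replicate 3 keeping it. With 5% and 25% the differences were 1.04 ± 0.38 and 0.88 ± 0.26 and were not called (adjusted p = 0.0399 and 0.0149). The 5% difference became -0.33 on the spike-in scale and -1.02 with normexp.

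Map1lc3b, which encodes LC3B, was measured by 10 spots of 1 probe on each array. Controls ran from 6.20 to 7.13 with a median of 6.79, and the X-ray mice from 6.60 to 6.99 with a median of 6.66. These groups overlapped fully, and the difference was 0.02 ± 0.19 (95% interval -0.40 to 0.43), which changed sign in 4 of 12 fits that left out a mouse. The Neutron alone mice ran from 7.17 to 8.09 with a median of 7.53, all above the controls. This difference of 0.90 ± 0.21 was called (adjusted p = 0.00222).

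Leaving out Control replicate 1, 2, 3, 4, or 5 or Neutron alone replicate 1, 3, 5, or 6 ended the Neutron alone call for Map1lc3b, with differences between 0.79 and 0.94. With 15% the levels ran from 6.77 to 8.71 with a median of 8.24. The 15% difference of 1.34 ± 0.32 missed the call (adjusted p = 0.0035) and passed it at 1.60 without replicate 3, the lowest mouse. With 5 and 25% the differences were 0.64 ± 0.30 and 0.73 ± 0.23, not called. Centred on spike-ins, the differences were -0.96 with X-rays, -0.72 with 5%, -0.12 with 25%, and -0.98 with Neutron alone, and with slide as a block they were -0.65 with 5% and -0.20 with 15%.

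Ulk1 encodes the kinase that starts autophagy, and its loss is known to delay the removal of mitochondria and ribosomes from reticulocytes. Controls ran from 5.51 to 6.54 with a median of 6.09. The 15% mice ran from 6.31 to 8.09 with a median of 7.66, with 5 of 6 above every control. This was the called difference, 1.47 ± 0.30 (SE; adjusted p = 0.00119).

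The Ulk1 differences with 5 and 25% were 1.02 ± 0.26 and 0.80 ± 0.21 and were not called (adjusted p = 0.00583 and 0.00666). Without 5% replicate 5 the former was called at 1.19, and without Control replicate 6 the latter was called at 0.89. With X-rays the difference was 0.44 ± 0.22 and with Neutron alone 0.52 ± 0.18, neither called. On the spike-in scale Ulk1 was lower with X-rays (-0.54), 5% (-0.34), 25% (-0.057), and Neutron alone (-1.36).

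Wipi1 encodes a protein that binds the lipid PI3P on the forming autophagosome. Controls ran from 3.66 to 4.45 with a median of 4.03. The X-ray mice ran from 5.89 to 6.96 with a median of 6.54, the 15% mice from 4.86 to 5.94 with a median of 5.46, and the Neutron alone mice from 5.45 to 6.14 with a median of 5.82. These 3 groups did not overlap the controls, and the X-ray mice were the highest by group median.

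The log2 fold-change of Wipi1 was 2.49 ± 0.21 (SE) with X-rays (adjusted p = 2.55e-06), 1.75 ± 0.35 with 5% (adjusted p = 0.00135), and 1.43 ± 0.23 with 15% (adjusted p = 0.000239). It was 1.49 ± 0.32 with 25% (adjusted p = 0.00202) and 1.78 ± 0.16 with Neutron alone (adjusted p = 1.69e-06). In the 5% group 1 mouse, replicate 3 at 4.25, lay within the control range. The 25% call was lost without Control replicate 1, 5, or 6 or without 25% replicate 3, at differences between 1.36 and 1.48. The second Wipi1 probe was called in all 5 exposures too, at 2.71, 1.99, 2.09, 1.54, and 1.83 in the same order.

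Trim58 encodes an E3 ubiquitin ligase of late erythroblasts that acts on the motor protein dynein, and its message is known to rise late in red-cell development. Controls ran from 1.00 to 1.82 with a median of 1.28. The X-ray mice ran from 2.81 to 3.80 with a median of 3.40, the 5% mice from 2.12 to 4.46 with a median of 4.18, and the 15% mice from 2.80 to 4.84 with a median of 4.41. The 25% mice ran from 2.87 to 4.26 with a median of 3.11 and the Neutron alone mice from 3.21 to 4.53 with a median of 3.57. The lowest of the 30 exposed mice, 5% replicate 3, was above the highest control.

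The log2 fold-change of Trim58 was 2.91 ± 0.33 (SE) with 15%, a 7.53-fold difference with an adjusted p of 1.5e-05, the largest of any of the 9 genes against controls. It was 2.03 ± 0.21 with X-rays (adjusted p = 9.1e-06), 2.31 ± 0.41 with 5% (adjusted p = 0.000623), 2.03 ± 0.27 with 25% (adjusted p = 5.77e-05), and 2.34 ± 0.22 with Neutron alone (adjusted p = 1.94e-06).

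Ube2o encodes an E2/E3 hybrid ubiquitin enzyme that marks ribosomal proteins for destruction in reticulocytes. Controls ran from 12.41 to 13.23 with a median of 12.85. The X-ray mice ran from 14.01 to 15.11 with a median of 14.62 and the Neutron alone mice from 14.36 to 14.68 with a median of 14.45. Both groups were above every control, and the Neutron alone SD was 0.13 (n = 6).

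The log2 fold-change of Ube2o was 1.78 ± 0.22 (SE) with X-rays (adjusted p = 3.22e-05), 1.54 ± 0.30 with 15% (adjusted p = 0.000759), and 1.68 ± 0.16 with Neutron alone (adjusted p = 1.94e-06). With 5 and 25% it was 1.296 ± 0.34 and 0.997 ± 0.29 and was not called (adjusted p = 0.00724 and 0.0132). The 5% difference passed the test at 1.58 without replicate 3. On the spike-in scale Ube2o was lower with 5% (-0.070) and Neutron alone (-0.20), and with normexp it was lower in the same groups (-0.75 and -0.039).

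Xpo7 encodes exportin 7, through which histones and other proteins leave the nucleus as the erythroblast condenses its chromatin before enucleation. Controls ran from 2.49 to 3.28 with a median of 2.75. The X-ray mice ran from 4.66 to 5.87 with a median of 5.66 and the 15% mice from 4.96 to 5.92 with a median of 5.19. The Neutron alone mice ran from 3.79 to 4.65 with a median of 4.22, above all controls and below all X-ray and 15% mice.

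The log2 fold-change of Xpo7 was 2.64 ± 0.25 (SE) with X-rays (adjusted p = 4.85e-06), 2.38 ± 0.32 with 5% (adjusted p = 9.12e-05), 2.51 ± 0.22 with 15% (adjusted p = 1.81e-06), and 2.26 ± 0.31 with 25% (adjusted p = 7.28e-05). It was 1.47 ± 0.19 with Neutron alone (adjusted p = 2.41e-05). A second Xpo7 probe, well above background on 4 of 36 arrays, was called in none of the exposures, with differences between 0.15 and 0.92.

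Alox15 encodes 15-lipoxygenase, long studied as the enzyme that oxidizes organelle membranes in maturing reticulocytes, and it is also made by macrophages and eosinophils. Controls ran from 2.28 to 5.81 with a median of 2.83, and the X-ray mice from 1.44 to 8.14 with a median of 3.41. The Neutron alone mice ran from 0.56 to 6.04 with a median of 4.80. All groups overlapped, and the SD within groups, between 0.96 and 2.42, was the widest of the 9 genes.

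Alox15 was called in none of the exposures. Its log2 fold-change was 0.57 ± 0.99 (SE) with X-rays, 2.51 ± 0.63 with 5%, 1.48 ± 0.93 with 15%, 1.07 ± 0.59 with 25%, and 0.96 ± 0.85 with Neutron alone. The 5% difference (adjusted p = 0.00526) was called without Control replicate 5, at 3.00, or without 5% replicate 2, at 2.82. The X-ray difference changed sign to -0.28 without X-ray replicate 1, and on the spike-in scale it was -0.41 with X-rays and -0.92 with Neutron alone. The 95% interval with X-rays ran from -1.56 to 2.70.

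**Figure D2:**
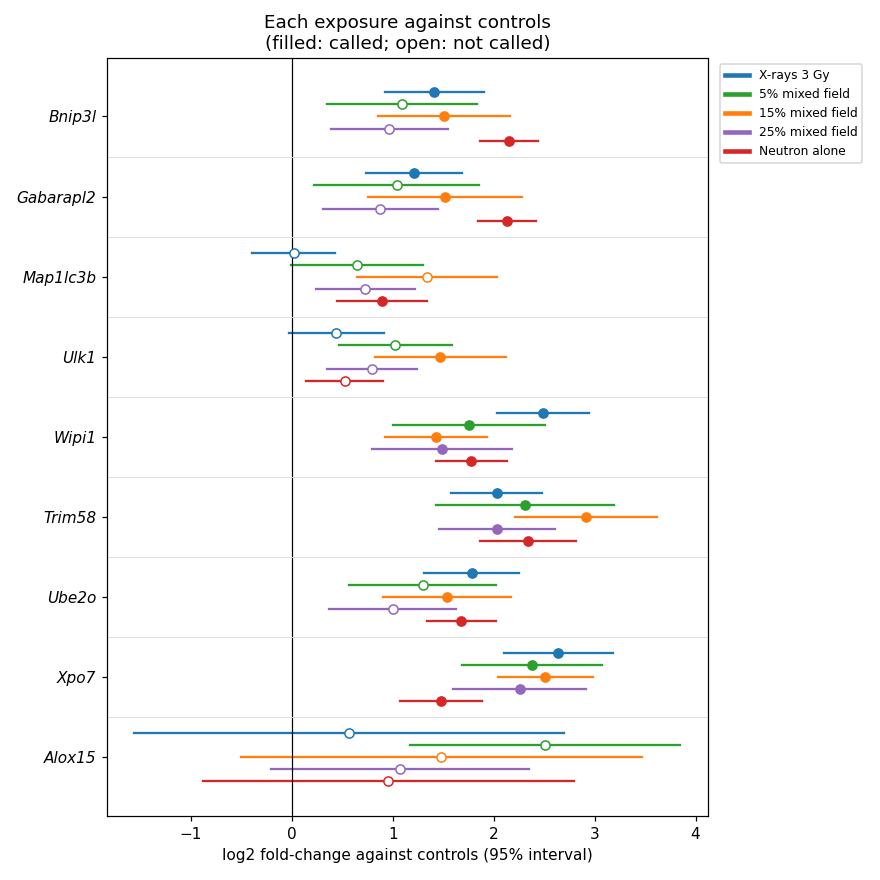
The horizontal axis is the log2 fold-change of each exposure against controls with its 95% interval from limma, and the 9 genes are listed down the vertical axis with 1 colour per exposure. Filled points were called. Trim58, Wipi1, and Xpo7 are filled in all 5 exposures and Alox15 in none. On the spike-in scale the Wipi1 and Xpo7 values with Neutron alone turn negative, at -0.10 and -0.40.

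Neutron alone was compared directly with X-rays, an exposure that differs in total dose, 0.75 against 3 Gy, as well as in radiation quality. Gabarapl2 and Map1lc3b were higher with Neutron alone, 2 of 9 genes beside 6.52% of all genes, and Xpo7 was lower, 1 of 9 beside 6.35%. Gabarapl2 was higher by 0.92 ± 0.21 (SE; adjusted p = 0.00575), Map1lc3b by 0.88 ± 0.20 (adjusted p = 0.00642), and Xpo7 was lower with a log2 difference of -1.17 ± 0.26 (adjusted p = 0.00542). For each of these 3 genes the 2 groups did not overlap, with all 6 Neutron alone mice above every X-ray mouse for 2 genes, beside 6.57% of all genes, and below for 1, beside 6.84%.

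These 3 calls were close to the threshold. None remained without X-ray replicate 2, 3, 4, or 6, or without Neutron alone replicate 1, 3, 5, or 6, and the Gabarapl2 call was also lost without X-ray replicate 1 or Neutron alone replicate 2 or 4, and the Map1lc3b call without X-ray replicate 1 or 5. Without X-ray replicate 6, the X-ray array scanned apart from the rest of its group, the differences were 0.86, 0.91, and -1.11. On the spike-in scale Gabarapl2 and Map1lc3b differed by 0.019 and -0.025, while Xpo7 differed by -2.07 and was called. No slide or scan session held both groups, so these cannot be told apart from the exposure.

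The other 6 genes were not called between Neutron alone and X-rays. Bnip3l was higher by 0.74 with a 95% interval of 0.27 to 1.20 and Wipi1 lower at -0.71 with an interval of -1.15 to -0.26, with adjusted p of 0.0220 and 0.0219. By probe, Bnip3l probe 3 was called, at 1.47 (adjusted p = 0.000734), and probes 2 and 4 differed by 0.17 and 0.26. Trim58, Ube2o, and Ulk1 differed by 0.31, -0.10, and 0.08, and their intervals stayed between -0.52 and 0.83. Alox15 differed by 0.39 with an interval of -1.98 to 2.76.

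Neutron alone and the 25% mixed field held the same neutron dose of 0.75 Gy, and the mixed field added photons up to 3 Gy. Bnip3l and Gabarapl2 were higher without the added photons, 2 of 9 genes beside 4.01% of all genes, and none was lower, beside 7.33%. Bnip3l was higher by 1.18 ± 0.26 (SE; adjusted p = 0.005) and Gabarapl2 by 1.26 ± 0.25 (adjusted p = 0.00299). The 25% levels overlapped the Neutron alone range through 25% replicate 5, at 14.69 for Bnip3l and 14.51 for Gabarapl2, so none of the 9 genes had all Neutron alone mice above every 25% mouse, beside 3.56% of all genes.

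Both groups were scanned in 1 session, and 1 slide held 2 mice of each. With slide as a block the differences were 0.67 for Bnip3l and 0.81 for Gabarapl2 and neither was called (adjusted p = 0.472 and 0.372). The Bnip3l call was lost when any 1 mouse other than 25% replicate 5 and Neutron alone replicate 4 was left out, at differences between 1.07 and 1.20. The 2 groups also differed in array median, 3.57 against 4.59, and on the spike-in scale the differences were 0.16 for Bnip3l and 0.23 for Gabarapl2.

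Among the other 7 genes, Ube2o was 0.68 higher (95% interval 0.09 to 1.27) and Xpo7 lower at -0.78 (-1.46 to -0.10), neither called. Map1lc3b, Wipi1, and Trim58 differed by 0.17, 0.29, and 0.31 and Ulk1 by -0.27, with intervals that included 0.

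**Figure D3:**
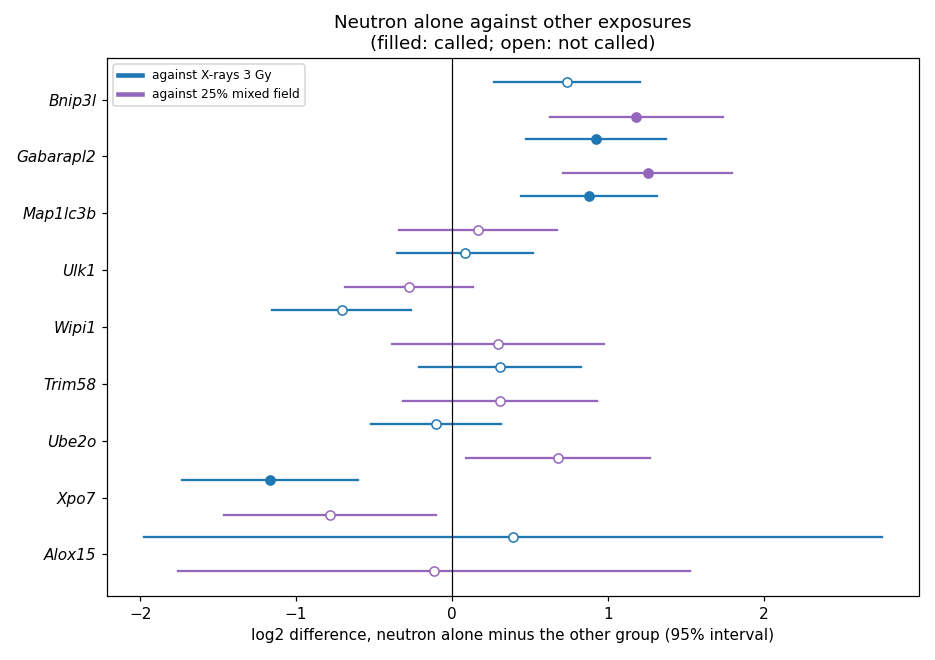
The horizontal axis is the log2 difference between Neutron alone and X-rays (blue) or the 25% mixed field (purple) with its 95% interval from limma, for the 9 genes down the vertical axis. Filled points were called. Gabarapl2 is filled in both comparisons, Bnip3l against 25%, and Map1lc3b and Xpo7 against X-rays, and on the spike-in scale the Map1lc3b difference is -0.025.

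A straight line over the 4 groups with a total of 3 Gy tested whether levels followed the neutron share of the dose, from 0 to 25%. Apart from the slide scanned in session 4, X-ray arrays were scanned in session 1, 5 and 15% arrays in session 2, and 25% arrays in session 3. Neutron share and scan session thus largely change together, and their parts in a slope were not separated. None of the 9 genes was called, beside 0.988% of all genes in either direction. At an unadjusted p below 0.05 by limma, 2 of the 9 genes had a slope, beside 19.7% of all genes (2963), so the count was near the background. Neither slope passed the adjusted test. Map1lc3b had 0.29 per 10 percentage points (95% interval 0.01 to 0.58, adjusted p = 0.239) and Wipi1 -0.36 (-0.64 to -0.07, adjusted p = 0.169). The slopes of Trim58 and Bnip3l were 0.04 and -0.10, with intervals of -0.29 to 0.38 and -0.39 to 0.19.

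Red-cell markers moved with these genes. Of the 29 markers, all of them tested, 21, 19, 23, 16, and 27 were called higher in the order X-rays, 5, 15, 25%, and Neutron alone, and none was called lower. Their mean log2 level was above that of controls by 2.06, 1.96, 2.27, 1.89, and 1.79. Their summed level, on the linear scale relative to the array median, ran from 100888 to 124927 in controls, 163152 to 392932 with X-rays, 108359 to 348250 with 5%, 131182 to 472301 with 15%, 121146 to 403822 with 25%, and 259679 to 386153 with Neutron alone. The red-cell markers include Hba-a1, Hba-a2, Hbb-b1, and Hbb-b2, globin genes whose transcripts were depleted from the RNA. In controls these genes still had mean log2 levels of 14.70, 14.46, 11.15, and 12.58. The marker mean and sum therefore include globin message left after depletion. Markers of other blood cells moved too, in the same order of exposures. B-cell markers were called lower for 9, 9, 9, 9, and 8 of 9, with median log2 fold-changes of -4.83, -3.82, -4.37, -4.34, and -1.32, and their summed level ran from 2508 to 4572 in controls and from 55.0 to 1507 over the exposed mice. Beside these counts, 12.9, 9.01, 12.6, 10.9, and 16.1% of all genes were called higher and 16.9, 14, 16.6, 13.9, and 20.4% lower. T-cell markers were called lower for 5, 5, 4, 3, and 1 of 11 and platelet markers higher for 0, 0, 4, 5, and 1 of 10. Neutrophil markers were called higher for 3 of 11 in each exposure and lower for 0, 0, 1, 1, and 1. Macrophage and monocyte markers were called higher for 0, 1, 0, 0, and 3 of 8 and never lower. Of 7 eosinophil markers tested, 0, 0, 0, 1, and 1 were called higher and 1 lower in each exposure. No NK-cell marker was called in any exposure. The part of these shifts in the results for the 9 genes was not tested. A larger number of reticulocytes in the blood and more of a message in each of them cannot be told apart in whole blood.

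Over the 36 arrays, the correlation with the mean of the red-cell markers was 0.93 for Trim58 and Xpo7, 0.90 for Ube2o, 0.84 for Wipi1, 0.80 for Bnip3l, 0.77 for Gabarapl2, 0.67 for Ulk1, 0.53 for Map1lc3b, and 0.02 for Alox15. After group means were removed the order changed. Within groups r was 0.94 for Ube2o, 0.89 for Bnip3l, 0.86 for Gabarapl2, 0.85 for Xpo7, 0.84 for Trim58, and 0.79 for Wipi1. Ulk1 and Map1lc3b had 0.49 and 0.45, and Alox15 had -0.49. These values describe arrays that share groups, scaling, and RNA preparation. The array median ran the other way, with r of -0.82 for Ube2o, -0.81 for Gabarapl2, -0.80 for Bnip3l, and -0.62 for the marker mean. It was -0.61 for Trim58 and Wipi1, -0.44 for Xpo7, -0.34 for Map1lc3b, -0.32 for Ulk1, and 0.19 for Alox15. Within groups it was -0.88 for Ube2o, -0.87 for Bnip3l, -0.86 for Gabarapl2, and -0.83 for the marker mean. For the other genes it ran from -0.70 for Trim58 to 0.38 for Alox15. The part of the array median in the result was not tested.

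**Figure D4:**
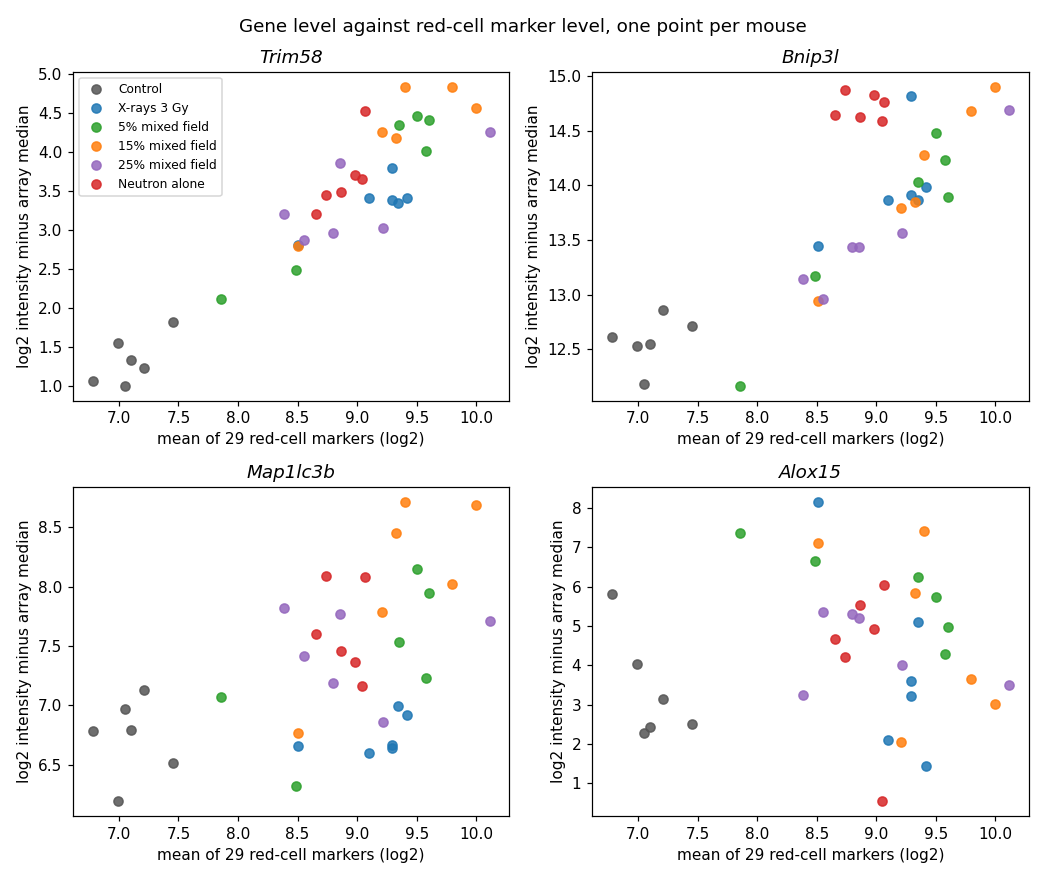
Each point is a mouse, with the mean of the 29 red-cell markers on the horizontal axis and the level of Trim58, Bnip3l, Map1lc3b, or Alox15 on the vertical axis, both as log2 intensity minus the array median. Trim58 rises with the marker mean over all mice (r = 0.93), but the groups are offset. Relative to the marker mean and to controls, Trim58 is at -0.03 with X-rays, 0.64 with 15%, and 0.55 with Neutron alone. The Neutron alone mice lie at 14.59 to 14.87 for Bnip3l, levels that X-ray replicate 5, 15% replicates 1 and 5, and 25% replicate 5 also reach. Alox15 has r = 0.02 over all mice and -0.49 within groups.

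Read against the red-cell mean of the same array, the genes separated. Relative to that mean and to controls, Bnip3l was at -0.65, -0.87, -0.77, and -0.92 with X-rays, 5, 15, and 25%, and at 0.36 with Neutron alone. Gabarapl2 was at -0.85, -0.93, -0.76, -1.01, and 0.34 in the same order. Both genes thus differed from controls by less than the average red-cell marker in the 4 groups with 3 Gy and by a little more with Neutron alone. In the 5, 15, and 25% groups all 6 mice were below every control for Bnip3l on this measure, and the same held for Ube2o. The marker mean rose by 1.96, 2.27, and 1.89 in these groups. A gene unchanged against the array median therefore also falls on this measure. The share of all genes with every mouse below the controls was not computed.

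Trim58 stayed near or above the red-cell mean, at -0.03, 0.34, 0.64, 0.14, and 0.55. Xpo7 was at 0.58, 0.42, 0.23, and 0.37 in the 4 groups with 3 Gy and at -0.32 with Neutron alone. Ube2o was at -0.28, -0.67, -0.74, -0.89, and -0.11, and Wipi1 at 0.43, -0.21, -0.85, -0.40, and -0.01. Map1lc3b was furthest below the marker mean with X-rays, at -2.05 against -0.90 with Neutron alone. These ratios were not tested.

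The genes most like each of the 9 in level over the 36 arrays were sought among the 15068 other genes tested, by Pearson correlation and as a description only. Bnip3l was most like Iscu and Tpt1 (r = 0.98 for both), Gabarapl2 like Riok3 and Carhsp1 (0.99 and 0.98), and Ube2o like Slc48a1, a heme transporter, and Rnf14 (0.98 and 0.97). Trim58 was most like Ube2f and Smox (0.98 for both), Xpo7 like Ctse (0.98), and Wipi1 like Dmtn, a red-cell membrane skeleton gene (0.96). Map1lc3b was most like Jak1 (0.94) and Ulk1 like Zfp646 (0.93). Among the 9 genes themselves, Bnip3l and Gabarapl2 had r = 0.98, Ulk1 and Map1lc3b 0.86, and Wipi1 and Map1lc3b 0.12.

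Alox15 followed a different set of transcripts. It was most like Fgfr1 and Prg4 (r = 0.96 for both). Of the 8 macrophage and monocyte markers measured, Adgre1, which encodes the macrophage antigen F4/80, had r = 0.89 with Alox15, while Cd68 and Csf1r had 0.47 and 0.35 and 4 others lay between -0.13 and 0.08. Further transcripts, chosen after their values were seen because they are known from resident macrophages of body cavities, were Cd5l with 0.86, Timd4 with 0.82, and Gata6 with 0.80. Their levels in controls already ranged widely, from 1.87 to 7.15 for Cd5l. Of the 9 eosinophil markers, Epx and Prg3 were well above background on 1 and 0 of the 36 arrays, while Siglecf, Ccr3, Ear1, and Ear2 were on all 36, Ear6 on 35, Il5ra on 31, and Prg2 on 27. Their summed level ran from 165 to 402 in controls and from 114 to 562 over the exposed mice. The summed level of the 8 macrophage and monocyte markers ran from 629 to 1206 in controls and from 509 to 2107 over the exposed mice. Whether cells of the body cavity entered the samples was not tested.

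The wider pathways were read from lists of genes around the 9, none of which holds any of the 9. For all genes tested, 12.9, 9.01, 12.6, 10.9, and 16.1% were called higher and 16.9, 14, 16.6, 13.9, and 20.4% lower, in the order X-rays, 5, 15, 25%, and Neutron alone, and the list counts below are to be read beside these shares. Of 31 genes of the autophagy machinery 26 were tested, and 7, 5, 7, 6, and 3 were called higher and 6, 3, 1, 2, and 1 lower. With Neutron alone both counts were below the share over all genes. The list median was -0.39, 0.19, 0.14, 0.03, and -0.23. Atg4a and Atg4b, proteases that process ATG8 proteins, and Becn1, a subunit of the PI3-kinase complex that makes PI3P, were each called higher in 4 exposures, with mean log2 fold-changes over the 5 of 2.28, 1.24, and 1.54. Atg16l2 and Pik3c3, the catalytic subunit of that complex, were each called lower in 3 exposures, with means of -1.05 and -0.997, and Pik3r4 in 1 (-0.98).

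Of 16 mitophagy and cargo receptor genes 14 were tested, and 7, 5, 7, 6, and 6 were called higher and 1, 1, 1, 1, and 2 lower. Pink1, the kinase that marks damaged mitochondria, was called higher in all 5 exposures, with log2 fold-changes from 1.85 to 2.95, and so was Optn, a receptor for ubiquitin-marked cargo, from 1.47 to 2.16. Tollip was called lower in 4 (-1.25 to -0.91), and Usp30 and Mul1 were called lower in 1 each.

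Ubiquitin enzymes of red-cell maturation were called higher in 6, 5, 6, 5, and 6 of 9 tested genes and lower in 0, 1, 1, 0, and 0. Wdr26, Ranbp10, and Rmnd5a belong to the CTLH ubiquitin ligase complex and were called higher in all 5 exposures, with mean log2 fold-changes of 2.96, 2.00, and 1.87. Rmnd5b, a paralog of Rmnd5a, was called lower in 2 (mean -1.05). Among 8 tested enucleation genes, E2f2, a transcription factor of terminal red-cell division, was called higher in all 5 (2.17 to 2.75), Myh10 in 3, and Kmt5a in 1. Tmod3, which caps actin filaments, was called lower in all 5 (-1.35 to -0.85), and Rac2 in 1 (mean -0.84).

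Among 6 tested transcription regulators, Klf1, Zfpm1, and Gata1, which drive red-cell genes, were called higher in all 5 exposures, with means of 2.38, 2.16, and 1.77. Tfeb, a regulator of lysosome and autophagy genes, was called lower in all 5 (-1.83 to -1.18). Of the 5 lipoxygenase genes and partners tested, Gpx4, which reduces lipid peroxides, was called higher in 4 exposures (mean 1.52) and Alox12 in 1 (mean 0.65). The red-cell markers above moved in the direction of the genes called higher here and opposite to Tfeb. With spike-in centring some of the genes named from these lists turned from higher to lower, namely Atg4b, Ranbp10, Gpx4, Klf1, Zfpm1, and Gata1 in 1 exposure each, Kmt5a and Alox12 in 4 each, and Mul1 with 5%, where it was at 0.16 on the array-median scale and not called. Normexp turned Becn1, Atg4b, and Zfpm1 lower in 1 exposure each, Ranbp10, Gpx4, and Gata1 in 2 each, Alox12 in 3, and Kmt5a in 4. It put Mul1 below 0 in all 5. Quantile normalization turned Alox12 lower in 2.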

How the data were processed

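The authors hybridized blood RNA from 36 mice to single-color Agilent arrays and deposited scanner intensity values. Per the file headers, Agilent Feature Extraction 12.0.2 had subtracted background on each array, and no step between arrays was applied. A deposited expression table holds log2 values that the authors had normalized and filtered. That matrix served as an alternative and holds 5 of the 9 genes.

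Here, processed intensities were log2-transformed, replicate spots averaged after removal of non-uniform ones, and the array median subtracted. A probe was kept if uniform and above background on more than 75% of arrays (21484 of 39429) and at least 1.5-fold from their median on at least 20% (17954), giving 15077 genes by brightest probe. Each comparison was fitted with limma 3.58.1 (R 4.3.3, with the data.table package at version 1.17.8) on its 12 arrays, and the trend on 24. Genes were called at p below 0.001 and Benjamini-Hochberg adjusted p below 0.05 over all genes. Scripts were tested on simulated data. In a simulated X-ray comparison the call rule recovered 80 of 200 planted log2 differences of 1.5 (40%), with 6 false calls. A gene that was not called can thus still differ by that much. Plots came from matplotlib 3.10.9 and numpy 2.4.6 under Python 3.11.15. The number of arrays and signal over background limit precision. Mice are separate animals.

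The 9 genes and the lists were chosen with earlier results of these data known, so no count over them is independent evidence. Named list genes are up to 3 with the largest mean rise and up to 3 with the largest mean fall among those called in at least 1 exposure, and the 2 genes most correlated with each of the 9. Of these, 4 probes without a clear gene symbol are not named, and 2 further list genes are not reported here. Alternatives were 75th percentile, detected-probe, quantile, and spike-in scaling, normexp with an offset of 50, other filters and probe rules, the deposited matrix, a model over all arrays, blocks for replicate, slide, and session, omission of the slide scanned apart, the adjusted threshold alone, and leaving out each mouse.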

Additional observations from a re-analysis of the deposited data

Results flagged for a closer look

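Of 54 sets of 6 mice (9 genes in 6 groups), 5 held a mouse far from the rest, by the gap to its nearest neighbor as a share of the whole range (limit 0.625). Chance gives about 1 in 20. They were Bnip3l in 25% replicate 5 (0.652), the highest of its group, Gabarapl2 in Control replicate 3 (0.666), the lowest, Trim58 in 15% replicate 3 (0.680), the lowest, Xpo7 in 15% replicate 5 (0.643), the highest, and Alox15 in Neutron alone replicate 4 (0.667), the lowest. Control replicate 3 and 15% replicate 3 share the slide that was scanned in a session of its own.

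Differences between exposures passed the test 5 times. Against X-rays, Neutron alone was higher for Gabarapl2 by 0.92 and Map1lc3b by 0.88 and lower for Xpo7 (-1.17). Against the 25% mixed field it was higher for Bnip3l by 1.18 and for Gabarapl2 by 1.26. On the spike-in scale these 5 differences were 0.019, -0.025, -2.07, 0.16, and 0.23, and the part of scaling and scan session in them was not tested.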

How the results depend on the processing

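Counts are of the 9 genes called, in the order X-rays, 5, 15, 25%, and Neutron alone against controls (6, 3, 7, 3, and 7), then Neutron alone against X-rays (3) and against 25% (2). Normexp background gave 0, 0, 2, 0, 0, 0, and 0, and spike-in centring gave 3, 1, 2, 1, 2 against controls (the last 2 called lower) and 1 against 25%. That 1 gene was called lower and was neither Bnip3l nor Gabarapl2, which stood at 0.16 and 0.23 there. Against X-rays with spike-in centring, Xpo7 was called lower (-2.07), while Gabarapl2 and Map1lc3b stood at 0.019 and -0.025. The median of all genes in that comparison was -0.81, with 3485 of 15077 genes called. The deposited table, with 5 of the genes, gave 3 for X-rays, 4 for 15%, 4 for Neutron alone, and 0 against 25%. The adjusted threshold alone gave 8 for 5%, 8 for 25%, and 5 against X-rays. For 5%, 75th percentile scaling and 1 model over all arrays gave 5 each. For 5 and 15%, slide and session blocks gave 0, resting on 1 array of each exposure beside 1 control. Quantile normalization gave 4 for 15% and 1 against X-rays and 1 against 25%. Against X-rays, scaling on detected probes and 1 model gave 1 each, and leaving out the slide scanned apart, chosen after seeing the data, gave 0. Against 25%, 1 model gave 1 and the slide block 0. No session block was possible for 25% or Neutron alone against controls or for Neutron alone against X-rays. Leaving out each mouse gave 6 to 6, 3 to 5, 6 to 8, 2 to 3, and 6 to 7 against controls, 0 to 3 against X-rays, 1 to 3 against 25%, and 0 to 0 for the trend, which had 0 calls under all alternatives run. Replicate numbers do not pair the mice (mean residual correlation 0.037 over 90 same-numbered pairs, -0.745 to 0.733, and -0.0063 over 450 others). The replicate block gave 5, 4, 7, 3, and 7 against controls, 1 against X-rays, 1 against 25%, and 0 for the trend.

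Signs turned as follows. Spike-in centring: X-rays, Map1lc3b -0.96, Alox15 -0.41, Ulk1 -0.54, and 5%, Bnip3l -0.27, Ulk1 -0.34, Gabarapl2 -0.33, Map1lc3b -0.72, Ube2o -0.070, and 25%, Ulk1 -0.057, Map1lc3b -0.12, and Neutron alone, Ulk1 -1.36, Map1lc3b -0.98, Wipi1 -0.10, Ube2o -0.20, Xpo7 -0.40, Alox15 -0.92, and Map1lc3b against X-rays -0.025. Normexp: X-rays, Map1lc3b -0.79, Ulk1 -0.40, and 5%, Bnip3l -0.98, Ulk1 -0.85, Gabarapl2 -1.02, Map1lc3b -1.21, Ube2o -0.75, and Neutron alone, Ulk1 -1.04, Map1lc3b -0.74, Ube2o -0.039, Alox15 -0.080. Map1lc3b also turned with X-rays under quantile normalization (-0.031) and the slide block (-0.23), and under slide and session blocks with 5% (-0.65) and 15% (-0.20). Leaving out each mouse gave -0.091 to 0.095 for Map1lc3b and -0.28 to 1.06 for Alox15 with X-rays. The median of all genes moved to 0.23, 0.08, 0.17, 0.02, and 0.15 under 75th percentile scaling and to -0.26, -0.53, -0.05, -0.22, and -0.53 with normexp. The causes were not tested. Dim probes such as the second Xpo7 probe limit what can be detected.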
